A study of Mus musculus with 7 samples.

Results

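The 33 genes described here encode parts of the motile cilium or switch on its assembly, and they were followed in RNA from the whole olfactory epithelium of mice at postnatal day 7. They were picked by name from the 50600 genes of the count table, where 31 were found under their current symbol and 2 under an older one: Dnai1 as Dnaic1 and Dnai2 as Dnaic2. The study holds 7 libraries. The neo group (3 libraries) was Amigo1neo/neo, in which a neomycin cassette stands in place of the coding region of Amigo1, a gene for a cell-surface adhesion protein. The KO group (3 libraries) was Amigo1-/-, and WT (1 library) was Amigo1+/+. Amigo1 itself had 0.469, 0.300 and 0.0664 CPM (counts scaled to the effective size of the library) in neo, 0, 0.432 and 0.883 CPM in KO and 34.2 CPM in WT. Each sample name holds a code and what looks like a date, shared by KO and WT but different in neo, and this difference cannot be told apart from genotype. Whether the libraries of a group are from separate animals is not stated in the labels, and p-values therefore measure only the spread between samples.

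Motile cilia beat through dynein motors set along a ring of microtubule doublets. Outer and inner dynein arms drive the sliding, while radial spokes, the central pair and the nexin link regulate it. In the nose, multiciliated cells of the respiratory epithelium carry such cilia and move mucus. Olfactory sensory neurons bear cilia too, but those of mammals hold odorant receptors and do not beat. A dissection of olfactory epithelium that takes in some adjoining respiratory epithelium would carry transcripts of these 33 genes. Whether other cells of the dissection also contribute such transcripts was not tested.

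All 33 genes were detected in every library and all entered every test. Together they made up 0.104 to 0.157% of the gene counts of a library, from total gene counts of 14879415 to 21343058. A single gene, Gm42418, took from 9.83% of those counts in neo 1 to 16.5% in neo 2. The cell type in the working name was checked against further marker lists. The respiratory secretory genes Muc5b and Bpifa1, a mucin and a secreted airway protein, stood at 57.7 to 154 and 2394 to 5985 CPM, while Scgb1a1, the marker of airway club cells, had 0 counts in all 7 libraries. Omp, the marker of mature olfactory neurons, stood at 789 to 1168 CPM and Cyp2g1, an enzyme of olfactory sustentacular cells, at 918 to 1403 CPM. In whole tissue, fewer cells of a type and less RNA per cell cannot be told apart.

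RFX transcription factors act with Foxj1 on many cilia genes, so the promoters of the members were searched for the RFX letters GTTGCC, on both strands, from 250 bases before to 50 bases after the annotated start (RefSeq, GRCm38.p6). A window was present for 28 of the 33 genes, and 13 of the 28 (46.4%) held the letters. Counted by window, the letters stood in 14 of 33 member windows (42.4%), against 12.5% of all 32851 promoter windows of the same length. The forkhead letters GTAAACA stood in 1 of the 28 genes and in 1 of 33 member windows (3.03%), against 3.65% of all windows. The longer RFX letters GTTGCCATG, which contain GTTGCC, stood in 0 of 33 member windows, against 0.773% of all windows. Such a match is a string of letters and not a measured binding site. The 6 stretches printed here come from members whose levels are given in detail further on. Dnai2, Dynlrb2, Hydin and Mcidas were among the genes low in neo 1 or KO 2, Cfap44 was highest in neo 1, and Tekt2 varied little. Each runs 5′ to 3′ on the strand of the gene, with matches on either strand in capitals.
Dnai2, chr11:114727373-114727418, plus strand, -46 to -1 from the start: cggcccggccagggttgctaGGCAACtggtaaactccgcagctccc
Dynlrb2, chr8:116504944-116504989, plus strand, -71 to -26 from the start: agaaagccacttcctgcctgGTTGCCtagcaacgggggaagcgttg
Hydin, chr8:110266944-110266976, plus strand, -33 to -1 from the start: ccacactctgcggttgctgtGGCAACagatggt
Mcidas, chr13:112993653-112993698, plus strand, -215 to -170 from the start: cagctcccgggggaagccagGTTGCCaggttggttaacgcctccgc
Cfap44, chr16:44394650-44394798, plus strand, -149 to -1 from the start: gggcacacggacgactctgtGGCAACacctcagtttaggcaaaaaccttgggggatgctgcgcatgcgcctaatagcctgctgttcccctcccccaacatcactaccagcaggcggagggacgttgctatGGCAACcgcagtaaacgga
Tekt2, chr4:126325689-126325804, minus strand, -116 to -1 from the start: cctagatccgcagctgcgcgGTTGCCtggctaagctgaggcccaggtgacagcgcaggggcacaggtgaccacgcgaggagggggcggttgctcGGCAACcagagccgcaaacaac

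Between neo and KO no motile cilia gene changed at an adjusted p of 0.05 (edgeR quasi-likelihood test, two-sided, Benjamini-Hochberg over 17638 genes). The whole table held 3 such genes, or 0.0170% of those tested. DESeq2 and limma also called 0 members, with 3 and 2 at an unadjusted p under 0.05. The summed level of the 33 genes was 963, 1576 and 1485 CPM in neo, 1622, 1039 and 1141 CPM in KO and 1336 CPM in WT. The ranges of neo and KO overlapped, but neither held the other. One neo library was the lowest of all 7 and one KO library the highest, and WT lay between the extremes of either group. That order depends on the scaling: KO 2 was lowest with CPM without TMM (1037, against 1073 in neo 1) and with summed TPM (817, against 879 in neo 1), and neo 3 was highest with summed TPM (1199.7, against 1047 in KO 1). With CPM of totals without Gm42418, KO 2 was also lowest (1174, against 1190.2 in neo 1). The sum averaged 1341 ± 331 CPM in neo and 1267 ± 311 CPM in KO (SD, n = 3 each). The ratio of means was 1.06 for neo over KO, 0.949 for KO over WT and 1.0 for neo over WT.

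**Figure D1:**
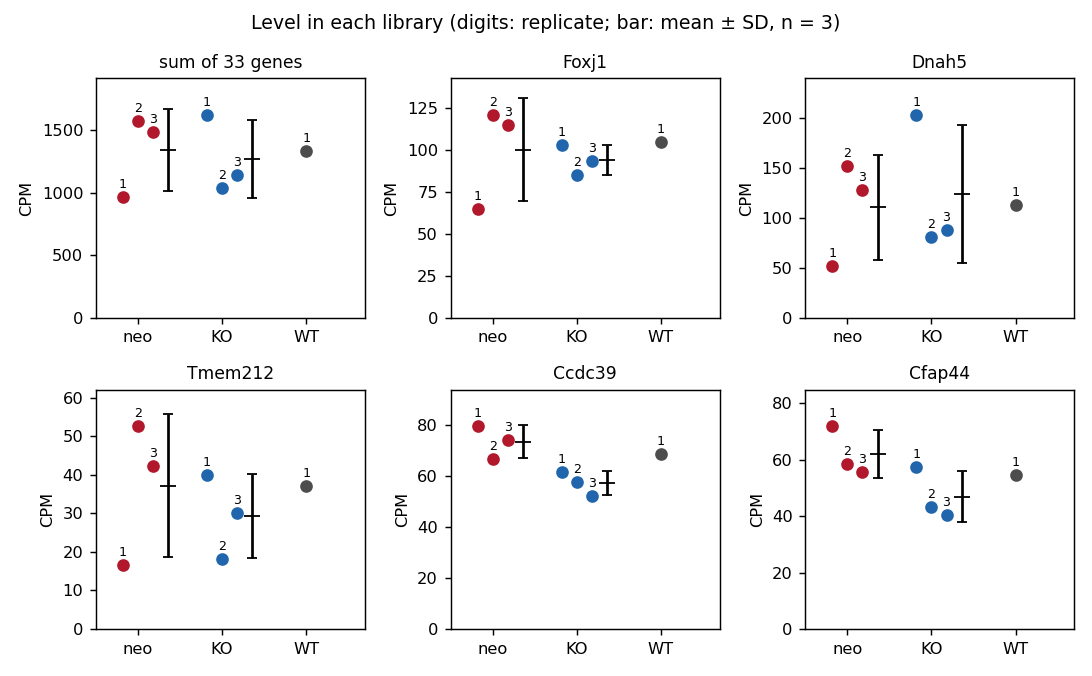
Level in CPM (y axis, from 0) of the sum of the 33 genes and of 5 single genes in each library of neo (red), KO (blue) and WT (grey), with the replicate number at each point and the mean ± SD of 3 libraries beside it. In these CPM after TMM the sum, Foxj1, Dnah5 and Tmem212 were lowest in neo 1, and Ccdc39 and Cfap44 were highest there, but without TMM the sum was lowest in KO 2 (1037).

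Gene by gene, the log2 fold changes of neo over KO lay between -0.18 and 0.40. The median log2 fold change of the 33 was 0.07, with 25 genes above 0, against a median of -0.00 and 49.6% above 0 over all genes tested. At an unadjusted p under 0.05 there were 3 members higher in neo and 0 lower, beside 4.59% of all genes higher and 4.72% lower. The 95% interval lay within a 2-fold change in either direction for 28 members. The other 5 were Dnah5, Dnah6, Dnah9, Dnah10 and Tmem212, for which a change beyond 2-fold was within the interval. In 1 member every neo library was above every KO library, beside 7.90% of all genes, and in 0 members every neo library was below every KO library, beside 7.69%.

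**Figure D2:**
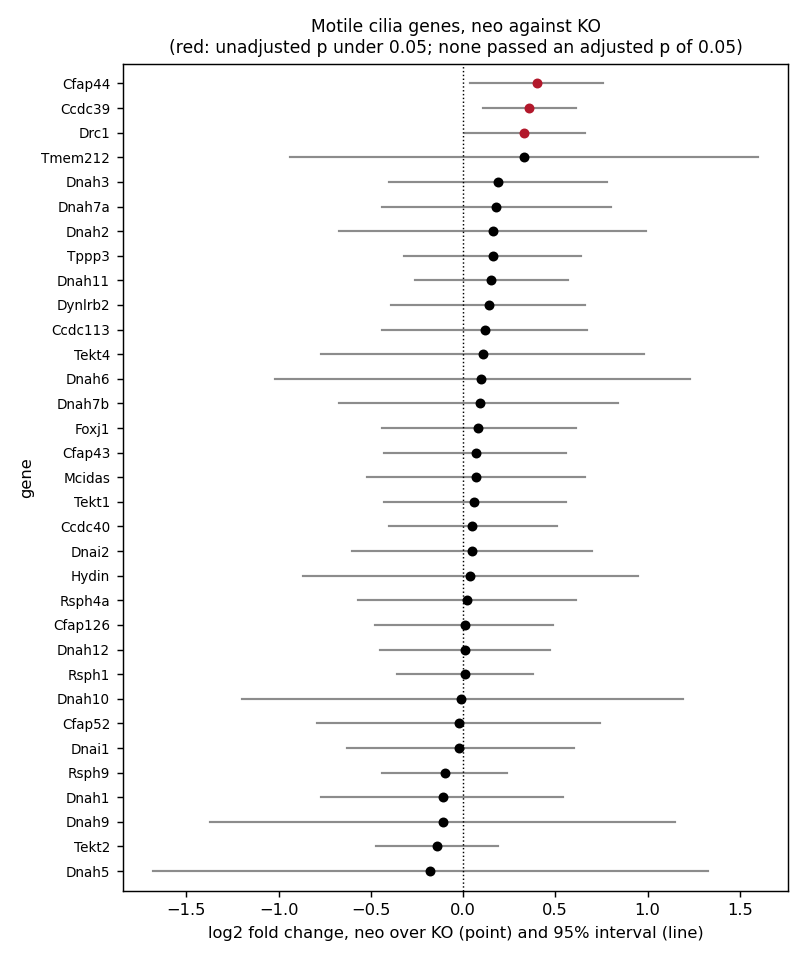
Log2 fold change of neo over KO (x axis) for each of the 33 genes (y axis, ordered by that change), with its 95% interval as a line. The 3 red points, Cfap44, Ccdc39 and Drc1, had an unadjusted p under 0.05, and none of the 33 passed an adjusted p of 0.05.

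The comparisons with WT rest on 1 WT library, which is assumed to vary like the others, and both share it. In KO against WT, 0 of 33 genes changed (lowest adjusted p = 1.0, edgeR), beside 0.00523% of the 19123 genes tested. At an unadjusted p under 0.05 the count was also 0, beside 0.727%. The median log2 fold change of KO over WT was -0.08, with 8 genes above 0. In neo against WT, 0 of 33 changed (lowest adjusted p = 1.0, edgeR), beside 0.0105% of genes, and 0 had an unadjusted p under 0.05, beside 2.97%. The median of neo over WT was -0.03, with 13 genes above 0. The median over all genes was 0.01 in both. The 95% interval lay within 2-fold for 20 members in KO against WT and 22 in neo against WT.

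The members varied from library to library within each genotype. Within a genotype the log2 CPM of a member had a pooled SD of 0.38 (median over 33 genes, 0.12 to 0.79). The same median was 0.20 over all genes tested and 0.17 over the 11272 genes with a mean CPM in the members' range of 5.13 to 116. Neo 1 was the lowest of the 7 libraries for 21 members, beside 18.8% of all genes. KO 1 was the highest for 17, beside 15.5%, and neo 2 for 12, beside 17.0%. Of the other 12 members, KO 2 was lowest for 6 (Mcidas, Dnah3, Dnah7b, Drc1, Cfap43 and Hydin), beside 8.24% of all genes. KO 3 was lowest for the other 6 (Dnah11, Dnah2, Rsph4a, Ccdc39, Ccdc40 and Cfap44), beside 16.6%. With the deposited TPM (a level scaled to transcript length and library size) in place of CPM, neo 1 was lowest for 13 members (5.74% of all genes), KO 1 highest for 12 (6.44%) and neo 2 highest for 2 (4.66%).

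**Figure D3:**
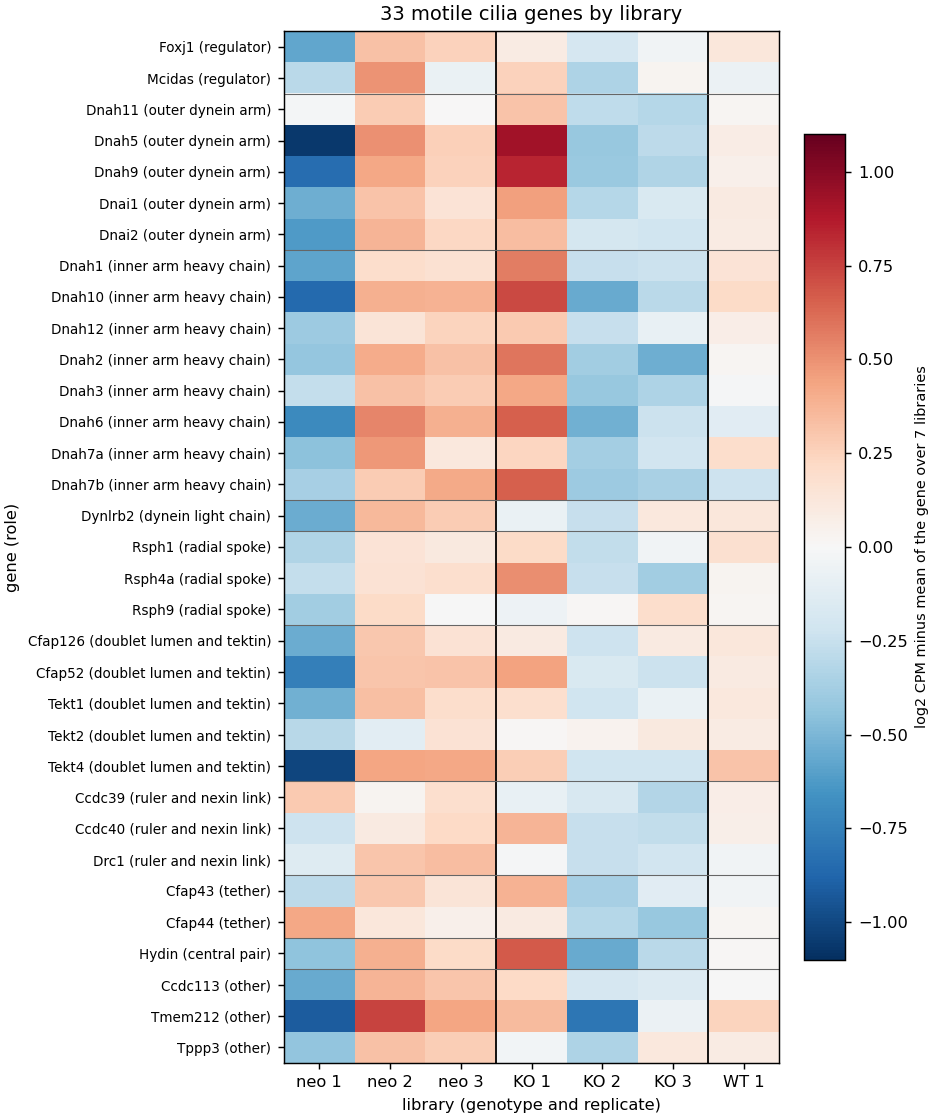
Log2 CPM minus the gene's mean over 7 libraries (colour, blue low and red high) for the 33 genes (rows, grouped by role) in neo, KO and WT libraries (columns). The median deviation was -0.44 in neo 1, 0.32 in neo 2, 0.23 in neo 3, 0.31 in KO 1, -0.27 in KO 2, -0.21 in KO 3 and 0.07 in WT.

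Foxj1 is the transcription factor that switches on the motile cilia programme. It had 65.0, 121 and 115 CPM in neo, 103, 85.1 and 93.7 CPM in KO and 105 CPM in WT. Neo 1 stood below every other library and the groups overlapped. The log2 fold change of neo over KO was 0.08 ± 0.22 (SE; 95% interval -0.44 to 0.61; adjusted p = 0.941, edgeR). Mcidas, a coregulator that starts centriole amplification in cells becoming multiciliated, was scarce, at 4.09, 7.09 and 4.78 CPM in neo, 6.0, 3.99 and 5.13 CPM in KO and 4.82 CPM in WT. Neo 2 was highest and KO 2 lowest, and log2 neo over KO was 0.07 ± 0.26 (SE; adjusted p = 0.960, edgeR).

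The widest spread of the 33 genes was in the outer dynein arm. Dnah5, an outer arm heavy chain, had 51.2, 152 and 128 CPM in neo, 203, 80.4 and 87.6 CPM in KO and 113 CPM in WT. Its highest library, KO 1, was 3.96-fold above its lowest, neo 1. Dnah9, the heavy chain of the distal outer arm, followed the same order, with 29.0, 69.6 and 61.8 CPM in neo, 92.3, 38.9 and 41.1 CPM in KO and 53.8 CPM in WT. With such spread their log2 fold changes of neo over KO were -0.18 ± 0.58 for Dnah5 (SE; adjusted p = 0.955, edgeR) and -0.11 ± 0.50 for Dnah9 (SE; adjusted p = 0.966, edgeR).

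Dnah11, the proximal outer arm heavy chain, was steadier, at 29.9, 36.7 and 30.4 CPM in neo, 37.6, 24.9 and 24.3 CPM in KO and 30.8 CPM in WT. Neo 1 was not low for it, and log2 neo over KO was 0.15 ± 0.18 (SE; adjusted p = 0.841, edgeR). The intermediate chain Dnai2 had 21.6, 43.2 and 39.0 CPM in neo, 42.0, 29.1 and 28.6 CPM in KO and 35.5 CPM in WT. It was lowest in neo 1, with a log2 fold change of neo over KO of 0.05 ± 0.28 (SE; adjusted p = 0.974, edgeR). The other intermediate chain, Dnai1, ranged over 7.58 to 15 CPM and was also lowest in neo 1. Per length, Dnai2 averaged 17.3 TPM over the 7 libraries, Dnah5 10.4 TPM, Dnah9 9.63 TPM, Dnai1 8.93 TPM and Dnah11 4.79 TPM.

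The 8 inner arm heavy chains were all highest in KO 1 except Dnah7a, which was highest in neo 2. Their lowest library differed, being neo 1, KO 2 or KO 3. The median deviation of the 8 was -0.43 in neo 1, 0.57 in KO 1, -0.39 in KO 2 and 0.04 in WT. Dnah3 had 17.5, 26.2 and 25.4 CPM in neo, 28.1, 15.7 and 16.5 CPM in KO and 20.8 CPM in WT, with a log2 fold change of neo over KO of 0.19 ± 0.26 (SE; adjusted p = 0.866, edgeR). Dnah10 and Dnah6 spread most within this class, with the highest library 3.01-fold and 2.55-fold above the lowest. Dnah12 spread least, at 1.61-fold. Dnah7a and Dnah7b are near-identical copies whose shared reads are not in the counts, so their levels are uncertain. Dnah7a had the highest mean TPM of the class, at 9.08. Of that, 8.65 TPM stood in a transcript typed as processed by GENCODE vM21 and 0.424 TPM in the coding transcript. Dnah7a had 4.30, 8.17 and 6.37 CPM in neo, 6.91, 4.53 and 5.08 CPM in KO and 6.70 CPM in WT (log2 neo over KO 0.18 ± 0.27, SE; adjusted p = 0.883, edgeR). The light chain Dynlrb2, per length the most abundant member at a mean of 151 TPM, had 31.0, 57.9 and 54.9 CPM in neo, 43.0, 38.1 and 49.2 CPM in KO and 49.3 CPM in WT. It was lowest in neo 1 but not high in KO 1 (log2 neo over KO 0.14 ± 0.23, SE; adjusted p = 0.896, edgeR).

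The 3 radial spoke head genes varied less than Dnah5 or Dnah9. Rsph1 had 45.7, 63.8 and 61.9 CPM in neo, 66.3, 47.5 and 55.9 CPM in KO and 64.7 CPM in WT (log2 neo over KO 0.01 ± 0.16, SE; adjusted p = 0.992, edgeR). Rsph9, another spoke head protein, had 32.8, 49.4 and 42.5 CPM in neo, 41.0, 43.1 and 48.7 CPM in KO and 43.2 CPM in WT (log2 neo over KO -0.10 ± 0.15, SE; adjusted p = 0.887, edgeR). Both were lowest in neo 1, yet KO 1 was the lowest KO library for Rsph9. Rsph4a ranged over 39.0 to 72.4 CPM, with KO 1 highest.

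Cfap126, a protein needed for basal body docking and positioning, had 32.0, 57.4 and 52.4 CPM in neo, 50.2, 39.9 and 50.2 CPM in KO and 51.1 CPM in WT (log2 neo over KO 0.01 ± 0.21, SE; adjusted p = 0.993, edgeR). Tekt2, one of the tektins that run along the doublets, was among the steadiest members, at 13.2, 15.1 and 18.2 CPM in neo, 16.5, 16.8 and 17.6 CPM in KO and 17.4 CPM in WT (log2 neo over KO -0.14 ± 0.15, SE; adjusted p = 0.823, edgeR). Tekt4, of the same family, was not: it had 6.30 CPM in neo 1, against 10.9 to 17.1 CPM in the other 6 libraries. Cfap52 and Tekt1 were also lowest in neo 1, and their highest libraries stood 2.28-fold and 1.82-fold above it. Neo 1 was lowest for all 5 of these doublet genes.

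Ccdc39 and Cfap44, from the ruler and tether classes, were not low in neo 1. Ccdc39 pairs with Ccdc40 as the ruler that spaces the dynein arms along the doublet. Ccdc39 had 79.5, 66.6 and 74.1 CPM in neo, 61.4, 57.8 and 52.2 CPM in KO and 68.6 CPM in WT. It was the 1 member whose neo libraries all stood above its KO libraries, and neo 1 was its highest library. Log2 neo over KO was 0.36 ± 0.11 (SE; 95% interval 0.11 to 0.61; unadjusted p = 0.00933; adjusted p = 0.471, edgeR). Its partner Ccdc40 followed the other members more closely, at 60.4, 75.8 and 82.6 CPM in neo, 92.0, 59.4 and 58.6 CPM in KO and 74.0 CPM in WT (log2 neo over KO 0.05 ± 0.20, SE; adjusted p = 0.958, edgeR).

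Cfap44, a subunit of the tether of an inner arm dynein, had 71.9, 58.6 and 55.7 CPM in neo, 57.3, 43.3 and 40.3 CPM in KO and 54.6 CPM in WT. Neo 1 was again highest and only KO 1 overlapped the neo range. Log2 neo over KO was 0.40 ± 0.16 (SE; unadjusted p = 0.0328; adjusted p = 0.512, edgeR). Its partner Cfap43 had 43.6 CPM in neo 1, against 58.7 to 65.3 CPM in the other neo libraries and 41.4 to 69.2 CPM in KO. Drc1, a subunit of the nexin link picked out after its values were seen, had 40.8, 55.5 and 56.9 CPM in neo, 44.6, 37.7 and 38.9 CPM in KO and 43.6 CPM in WT (log2 neo over KO 0.33 ± 0.14, SE; unadjusted p = 0.0468; adjusted p = 0.533, edgeR). In the authors' deposited table, whose fold change runs as KO over neo, log2 was -0.36 for Ccdc39 (adjusted p = 0.329), -0.40 for Cfap44 (adjusted p = 0.498) and -0.33 for Drc1 (adjusted p = 0.644), and 0 members passed, among 79 genes of that table that did. The share of its genes that passed is not given here. That comparison used the same neo and KO libraries, so its values are not independent of those above.

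The transcripts behind the high neo 1 values of Ccdc39 and Cfap44 were looked at in the deposited isoform TPM, typed by GENCODE vM21, which had no match for 11.3 to 13.4% of the members' TPM. The coding transcript of Ccdc39 had 22.1, 17.5 and 23.1 TPM in neo, 18.2, 15.8 and 13.0 TPM in KO and 19.2 TPM in WT, so neo 1 was not highest. Its 5 retained-intron transcripts summed to 30.2, 14.9 and 17.5 TPM in neo, 9.23, 12.2 and 15.4 TPM in KO and 19.7 TPM in WT, with neo 1 highest. The coding transcripts of Cfap44 had 12.5, 8.54 and 9.85 TPM in neo, 8.94, 6.95 and 5.79 TPM in KO and 9.08 TPM in WT, with neo 1 highest. The largest class of Cfap44 in neo 1 was a transcript typed as non-stop decay (without a stop codon). It stood at 16.8 TPM there, against 6.61 to 10.8 TPM elsewhere. A processed transcript of Cfap44 without a coding frame stood at 11.7 TPM in neo 1, against 1.95 to 6.28 TPM elsewhere. The 3 retained-intron transcripts of Cfap44 were also highest in neo 1, but summed to less there than each of these classes. Over all 33 genes, retained-intron transcripts took 5.59% of their TPM in neo 1, against 2.60 to 3.35% in the other 6 libraries. Over all transcripts of the table that share was 4.32% in neo 1, against 2.69 to 3.48%. Its part in the Ccdc39 and Cfap44 values was not tested.

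Hydin, the giant protein of the central pair, had 19.7, 35.1 and 30.8 CPM in neo, 42.7, 18.2 and 21.7 CPM in KO and 26.9 CPM in WT. KO 1 was its highest library and KO 2 its lowest, and log2 neo over KO was 0.04 ± 0.38 (SE; adjusted p = 0.984, edgeR). Tppp3, a microtubule-binding protein abundant in multiciliated cells, had 52.2, 88.3 and 85.3 CPM in neo, 69.2, 55.8 and 76.4 CPM in KO and 75.0 CPM in WT (log2 neo over KO 0.16 ± 0.21, SE; adjusted p = 0.858, edgeR). Tmem212, a membrane protein, spread widely, at 16.6, 52.6 and 42.3 CPM in neo, 39.9, 18.1 and 30.0 CPM in KO and 37.1 CPM in WT. Neo 1 and KO 2 were its low libraries (log2 neo over KO 0.33 ± 0.50, SE; adjusted p = 0.887, edgeR). Ccdc113, a coiled-coil protein of the axoneme, ranged over 15.3 to 29.1 CPM and was lowest in neo 1.

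Among the members, transcript length went with how far a gene stood out in KO 1, while in neo 1 long and short members were alike. The 12 members with a longest coding transcript of 12009 to 15783 bases, which are 11 dynein heavy chains and Hydin, were 2.03-fold higher (median) in KO 1 than in the mean of the other KO libraries. The 21 shorter members, of 527 to 6583 bases, were 1.31-fold higher. Among other genes the log2 ratio of KO 1 also went with length, from a median of -0.15 under 2 kb (4138 genes) to 0.28 at 12 kb and over (178 genes). The long members exceeded that, at a median log2 of 1.02. In neo 1 the long and the short members were equally low, at 0.597-fold and 0.602-fold of the mean of the other neo libraries. Other genes went with length there too, from a median log2 of -0.18 under 2 kb to 0.15 at 12 kb and over. The members of those 2 ranges stood at -0.79 and -0.74. The part of length in the KO 1 and neo 1 values was not tested. With the 21 shorter members alone, summed CPM were 727, 1082 and 1042 in neo, 1018, 761 and 838 in KO and 954 in WT, and KO 1 no longer stood above neo 2 and neo 3.

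**Figure D4:**
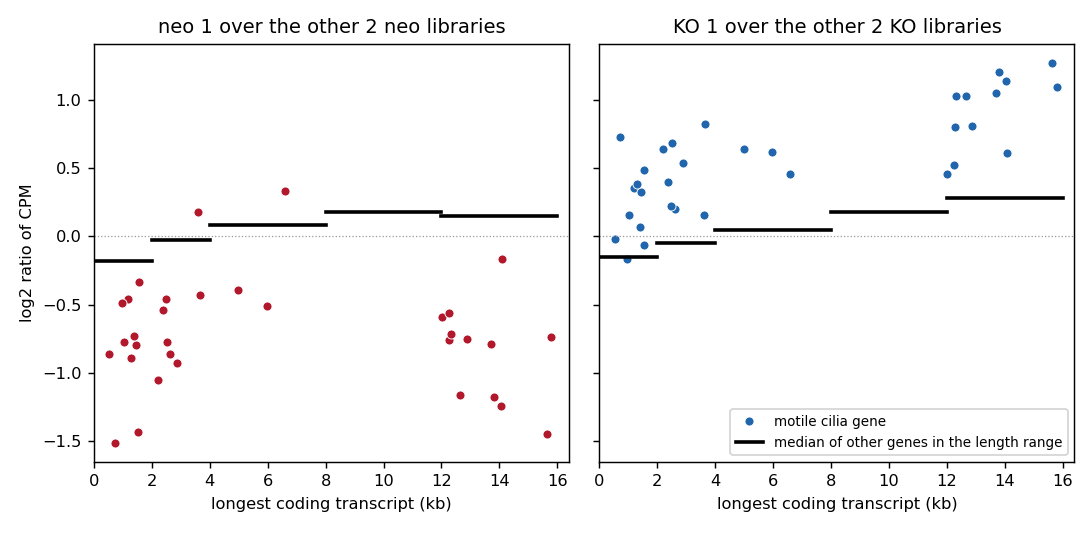
Log2 ratio of CPM (y axis) in neo 1 over the mean of the other neo libraries (left) and in KO 1 over the mean of the other KO libraries (right), against the longest coding transcript in kb (x axis). Points are the 33 genes and black bars are medians of other tested genes per length range. In KO 1 the points above 12 kb lie at 0.45 to 1.27.

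Other lists showed which transcripts varied alongside. The 50 further axoneme genes had median deviations of -0.29 in neo 1, 0.21 in KO 1 and -0.18 in KO 2, in the same directions as the members. Dynein assembly and docking factors did so at -0.35, 0.22 and -0.06. The 26 ciliary transport genes, which build motile and sensory cilia alike, stayed within -0.10 to 0.04 in all 7 libraries. The 13 multiciliation regulators, several of which dividing progenitors also use, lay within -0.11 to 0.20. Of the non-ciliary lists, the 5 basal cell genes (4 keratins and the transcription factor gene Trp63), which mark basal cells of both epithelia, stood at -0.39 in neo 1, 0.25 in KO 1 and -0.32 in KO 2. Krt15 was the most variable of them, with 16.8, 69.9 and 59.2 CPM in neo, 71.8, 27.5 and 41.5 CPM in KO and 50.2 CPM in WT. Not all 5 kept this order. Trp63 had 41.4, 49.8 and 47.5 CPM in neo, 40.2, 29.5 and 30.7 CPM in KO and 31.1 CPM in WT, and Krt17 was highest in KO 3, at 36.1 CPM, and lowest in WT, at 14.8 CPM.

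As a list, the respiratory secretory genes did not keep to the cilia order. Their median deviation was -0.58 in KO 2 but 0.39 in KO 3, where the members stood at -0.21, and -0.11 in KO 1, where the members were at 0.31. Muc5b had 95.6, 144 and 142 CPM in neo, 92.6, 57.7 and 154 CPM in KO and 95.8 CPM in WT. Muc5ac, another mucin gene, was nearer the cilia order, with 21.9, 53.7 and 63.0 CPM in neo, 59.8, 8.69 and 24.2 CPM in KO and 23.4 CPM in WT. Spdef, with the smallest unadjusted p of the list in neo against KO, was not. It had 5.71, 12.9 and 11.9 CPM in neo, 13.6, 16.1 and 17.5 CPM in KO and 15.4 CPM in WT. Its log2 neo over KO was -0.64 (unadjusted p = 0.0494, adjusted p = 0.535, edgeR). Of the 12 secretory genes tested, 11 had a log2 neo over KO above 0, beside 49.6% of all genes, with a median of 0.25. Mature olfactory neuron and sustentacular genes stayed within -0.19 to 0.25. Still, all 11 mature neuron genes had a log2 fold change of neo over KO above 0, beside 49.6% of all genes, with a median of 0.17. Of the 11, 0 passed an adjusted p of 0.05 and 1 was higher at an unadjusted p under 0.05 (edgeR), beside 4.59% of all genes. The 11 genes summed to 3823 to 4358 CPM in neo, 3364 to 3686 CPM in KO and 3816 CPM in WT, so neo and KO did not overlap. Of all single genes, 7.90% had every neo library above every KO library. Neo 1 also carried skeletal muscle transcripts: 6 muscle genes summed to 1062 CPM there, against 4.11 to 19.5 CPM in the other 6 libraries, and Myh8, a myosin of developing muscle, had 279 CPM there. The bone and fibroblast list summed to 3295 to 6534 CPM in neo, 8667 to 13075 CPM in KO and 9131 CPM in WT. Its neo and KO sums did not overlap either. Of all single genes, 7.69% had every neo library below every KO library. In neo against KO 5 of its 7 genes were lower at an unadjusted p under 0.05 (edgeR), beside 4.72% of all genes. The median log2 of the 7 was -1.09, with 1 above 0, and 0 passed an adjusted p of 0.05. The part of these other tissues in the motile cilia levels was not tested.

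**Figure D5:**
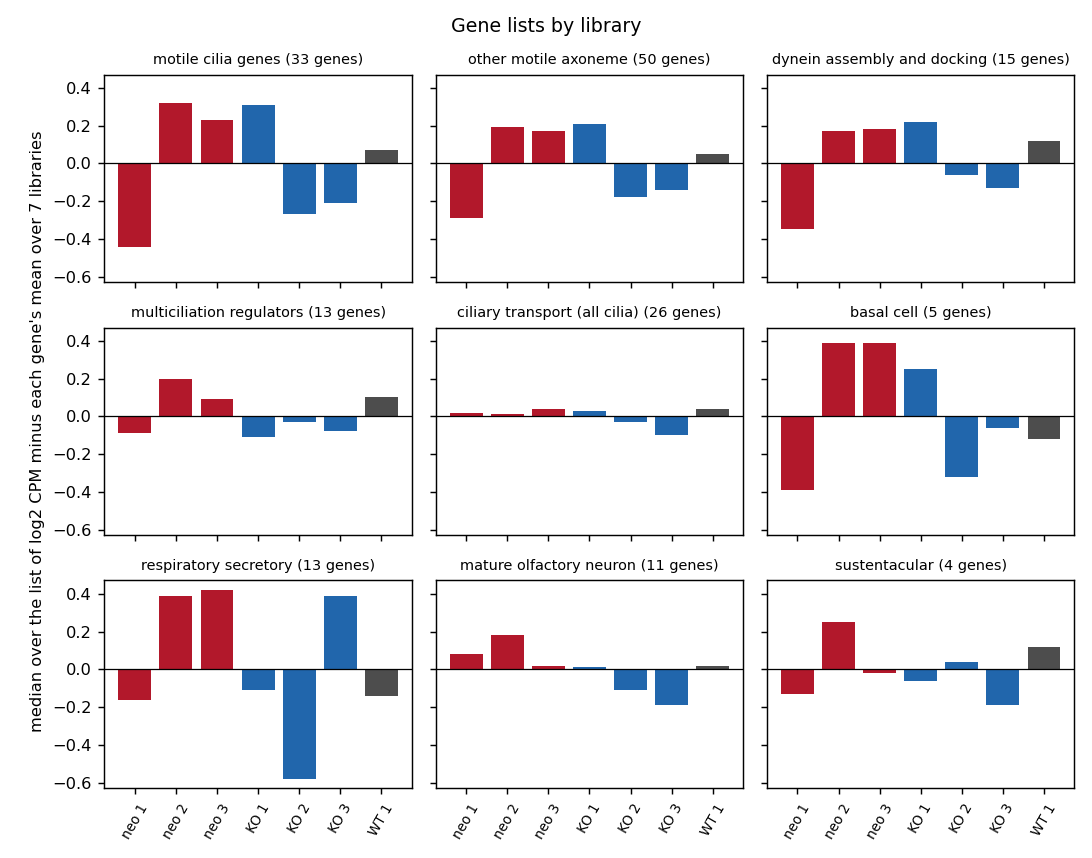
Median over each gene list (panels, with the number of genes) of log2 CPM minus each gene's mean over 7 libraries (y axis), for neo (red), KO (blue) and WT (grey) libraries. The motile cilia, other axoneme and assembly panels share signs in every library, with neo 1 at -0.44, -0.29 and -0.35, while ciliary transport stays near 0.

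In neo against KO 0 genes of these further lists passed an adjusted p of 0.05. Among 49 other axoneme genes tested, 4 were higher at an unadjusted p under 0.05 and 0 lower, with a median log2 of 0.04, beside 4.59% of all genes higher and 4.72% lower. Cfap69, a cilia protein that olfactory neurons also use, led them with 207, 197 and 202 CPM in neo, 150.4, 146 and 153 CPM in KO and 164 CPM in WT (log2 neo over KO 0.43 ± 0.08, SE; unadjusted p = 0.000537; adjusted p = 0.340, edgeR). Cfap65, a protein of the sperm flagellum and the axoneme, had 50.9, 51.1 and 58.1 CPM in neo, 40.9, 33.3 and 36.1 CPM in KO and 48.6 CPM in WT (log2 neo over KO 0.53 ± 0.12, SE; unadjusted p = 0.00133; adjusted p = 0.364, edgeR). Both were picked for the smallest unadjusted p of the list (edgeR). In both, every neo library stood above every KO library, beside 7.90% of all genes. The sum of the mature neuron genes was also higher in every neo library. The part of the mature neuron transcripts in the Cfap69 values was not tested. Against those same shares, of 15 assembly and docking factors 0 had an unadjusted p under 0.05, with a median log2 of 0.06, and of 13 multiciliation regulators also 0, with a median of 0.03. Of 26 ciliary transport genes 1 was lower, Arl13b, a small GTPase of the ciliary membrane, at 62.5, 46.4 and 53.0 CPM in neo, 71.5, 68.0 and 64.1 CPM in KO and 67.7 CPM in WT (log2 -0.33 ± 0.13, SE; unadjusted p = 0.0267; adjusted p = 0.502, edgeR).

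Single libraries decided the sign of the neo and KO comparison. Without neo 1 the median log2 fold change of the 33 genes was 0.28 (32 above 0), and without KO 1 it was 0.31 (31 above 0). Without any other single library it lay between -0.07 and -0.00. In KO against WT the median was -0.33 without KO 1 and 0.01 to 0.05 without KO 2 or KO 3. In neo against WT it was 0.19 without neo 1 and -0.15 to -0.12 without neo 2 or neo 3. In each of these fits 0 of 33 genes passed an adjusted p of 0.05, and the lowest adjusted p of a member was 0.155, in neo against KO without neo 1 (edgeR).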

How the data were processed

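RNA from 7 libraries was captured by poly(A) and prepared with the KAPA RNA Hyperprep kit, per the labels' protocols. The authors deposited gene read counts (stranded, per the table's name), gene and isoform TPM, and a comparison table with log2 fold changes and p-values. The submitters' processing notes name Trimmomatic 0.35, STAR 2.5.1b, RSEM and DESeq2 1.18.1 with GRCm38 (mm10). Reads counted as multimapping (14.5 to 19.6%) or without a feature (14.2 to 17.4%) stand in 4 summary rows that were left out, so reads shared by near-identical genes are not in the counts. Genes were tested with edgeR 4.0.16 (R 4.3.3; TMM, filterByExpr at 10 counts, robust quasi-likelihood fit, two-sided, Benjamini-Hochberg at 0.05): neo against KO on 6 libraries, the WT comparisons on all 7. The fit was tested on simulated data. DESeq2 1.42.0 and limma 3.58.1 on log2(TPM + 0.1) or log2(TPM + 1) were alternatives. Levels are CPM after TMM. Transcript lengths are from GENCODE vM21, matched by gene ID. Within a genotype, libraries differed by 9.43 to 123 chi-square units per degree of freedom, above sampling noise. Members and lists were chosen with earlier results of these data known. Full values are given for both regulators and, per role, the member with the highest mean TPM and the smallest p in neo against KO; Drc1, Dnah5, Dnah9 and Tmem212 were added after their values were seen.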

Additional observations from a re-analysis of the deposited data

How the results depend on the processing

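The count of 0 motile cilia genes past an adjusted p of 0.05 held in all 15 alternatives reported for neo against KO and in all 13 for each WT comparison, with a lowest adjusted p of at least 0.155, 1.0 and 0.662. It did not hold in a further fit, run once after seeing the data, that left out neo 1 and KO 1 together: some members then passed, higher in neo. That fit is withdrawn and its values are not given, because those libraries are the lowest and the highest for the outcome itself. Over the whole table the 3 genes called in neo against KO became 40 without a count filter, 96 with DESeq2, 17 without neo 1 and 1 with at least 50 counts in 3 libraries, without neo 3, KO 2 or KO 3, or with limma on log2(TPM + 1). With that limma fit KO against WT had 48 calls in place of 1 and neo against WT 50 in place of 2. In the limma fit on log2(TPM + 0.1), which differs in measure, test and gene filter, the median log2 neo over KO was 0.10 over all genes and 0.13 over the members. Leaving out 1 library each moved the median log2 fold change between -0.07 and 0.31 (neo over KO), -0.33 and 0.05 (KO over WT) and -0.15 and 0.19 (neo over WT). The count of members with neo above KO in every library was 2 with CPM without TMM (9.49% of all genes) and 3 with TPM (9.69%), against 1 (7.90%). Neo 1 was lowest for 13 members with TPM, and neo 2 highest for 5 with CPM without TMM and 2 with TPM. The cause was not tested. Of 20 single genes, 13 changed sign with RLE, DESeq2, the block or 1 library left out. With the replicate block Cfap126 stood at -0.02. Leaving out 1 library each gave log2 neo over KO of -0.06 to 0.31 for Ccdc40, -0.15 to 0.23 for Cfap126, -0.47 to 0.39 for Dnah5, -0.05 to 0.40 for Dnah7a, -0.34 to 0.42 for Dnah9, -0.13 to 0.31 for Dnai2, -0.01 to 0.38 for Dynlrb2, -0.06 to 0.32 for Foxj1, -0.18 to 0.51 for Hydin, -0.18 to 0.24 for Mcidas, -0.10 to 0.15 for Rsph1, -0.23 to 0.05 for Rsph9 and -0.00 to 0.69 for Tmem212. Replicate numbers do not pair the libraries (correlations of deviations -0.10, -0.05 and 0.19), and a replicate block left 1 called gene in the table, 0 members and a median of 0.07. Precision is limited by the spread between 3 libraries and by the single WT library. The alternative with members under 8 kb alone was chosen after seeing the data.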
